A study of Homo sapiens with 8 samples.

Results

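In all, 10 genes used to mark monocytes and macrophages (CD68, CD86, CD4, CD14, CD163, VCAN, FCN1, CLEC7A, MARCO and TREM1) were followed in U-937 cells given all-trans retinoic acid (ATRA), L-ascorbic acid (LAA), both or neither. The 10 genes were taken by symbol from tables of 61125 genes, whether or not they were detected. Of them, 7 passed the filter on low counts and were tested among 14995 genes, while CD14, CD163 and CLEC7A did not pass and are described by their counts. U-937 is an established human cell line, labelled pro-monocytic, that was derived from a histiocytic lymphoma. RNA sequencing was done after 72 h in 4 groups of 2 libraries: LAA+ATRA (250 µM LAA with 1 µM ATRA), ATRA (1 µM), LAA (250 µM) and vehicle, which was the PBS and DMSO used to dissolve the agents. Every group is this same line, and the labels do not say whether the 2 libraries of a group came from separate cultures, so a p-value here reflects the scatter of these libraries alone, which may be technical.

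Monocytes are blood cells of the myeloid lineage that leave the circulation and mature into macrophages, which engulf microbes and cell debris. The 10 markers serve several tasks in those cells: pathogen sensing and uptake (CD14, CLEC7A, MARCO, FCN1), amplification of inflammation (TREM1), costimulation of T cells (CD86), binding of class II molecules and of interleukin-16 (CD4), lysosomal function (CD68), scavenging of haemoglobin (CD163) and matrix (VCAN). ATRA is the ligand of the retinoic acid receptors, which bind DNA with retinoid X receptors, and it drives maturation of several myeloid leukaemia lines. LAA, vitamin C, is a cofactor of iron-dependent dioxygenases, among them the TET enzymes that oxidise methylated cytosine.

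Library totals lay between 18462552 and 24166770 estimated counts. The labelled cell type was checked first. All 9 genes of the pro-monocytic list (PTPRC, SPI1, CD33, LYZ, MPO, AZU1, CSF1R, FCGR1A and CD4, itself one of the 10 markers) were detected, with summed levels of 3170 to 3240 CPM (counts scaled to library size) in LAA+ATRA, 2770 to 3010 CPM in ATRA, 1990 to 2050 CPM in LAA and 1640 to 1780 CPM in vehicle. MPO was the lowest of the 9, with group means of 0.228 to 0.721 CPM. Defining markers of T cells (CD3D, CD3E, CD8A), B cells (MS4A1), natural killer cells (KLRD1, NCR1), erythroid cells (HBB) and platelets (PF4) had no counts in any library. Markers of neutrophils and granulocytes were present: the 12 genes, 2 of which had under 10 counts in all libraries together, summed to 11500 to 13000 CPM in LAA+ATRA, 11100 to 11300 CPM in ATRA, 5280 to 5580 CPM in LAA and 5060 to 5220 CPM in vehicle. MPO and AZU1 are in both this list and the pro-monocytic one. Of the 8 granulocyte genes tested, 7 rose in ATRA against vehicle, where 21.9% of all tested genes rose, and the part of this list in the results below was not tested. CEACAM8 among them passed the filter on low counts only through the LAA+ATRA libraries.

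**Figure D1:**
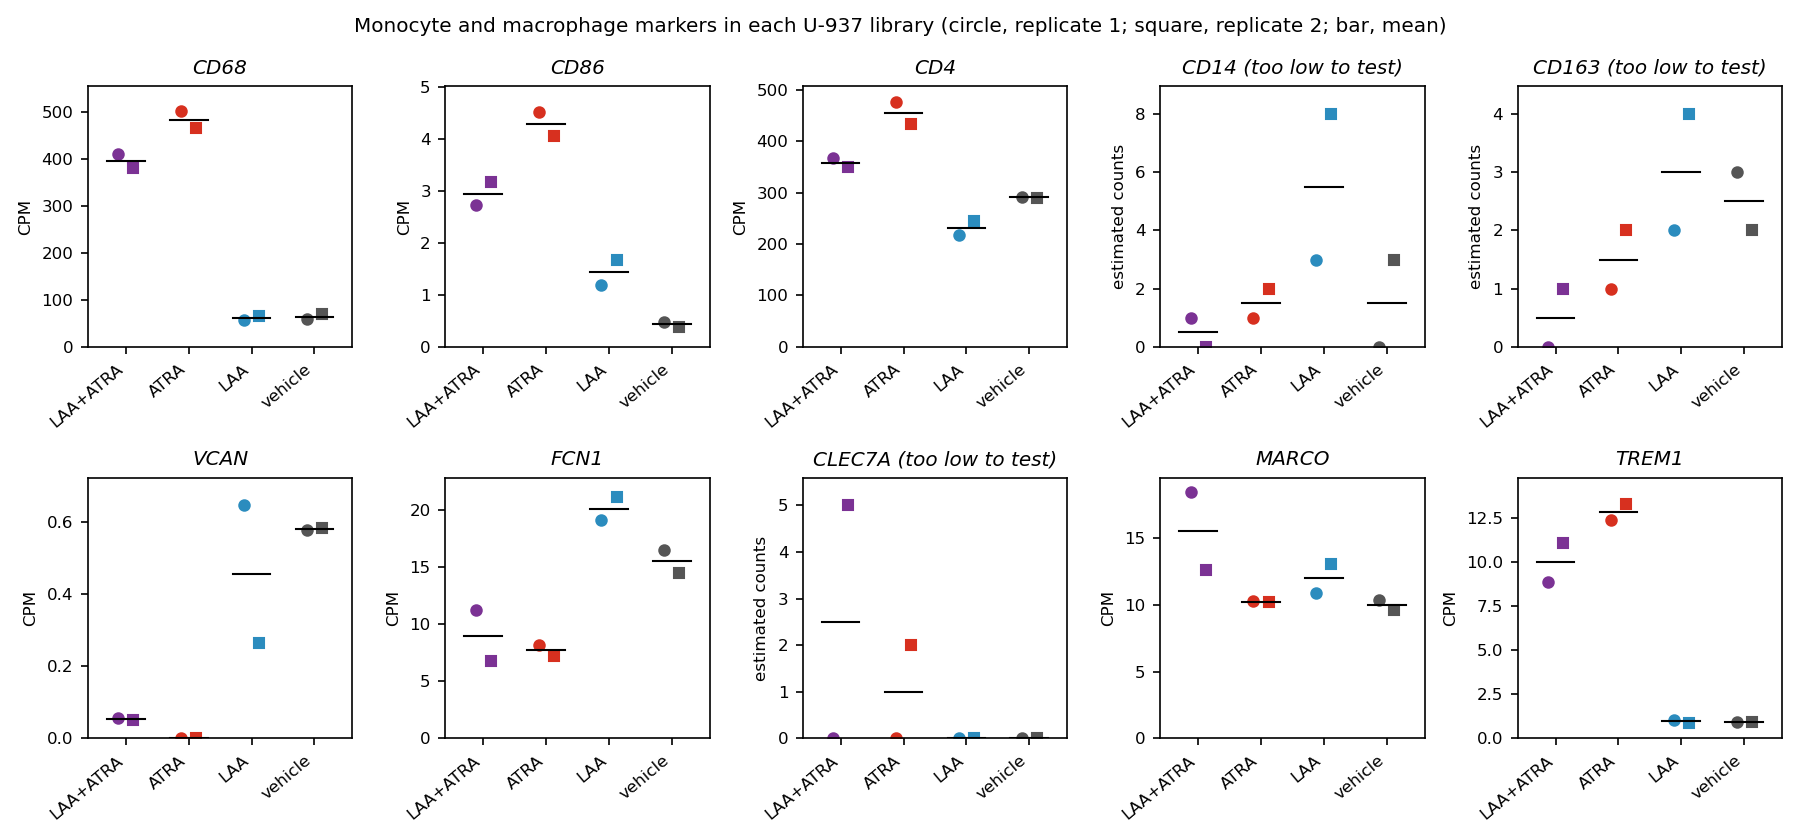
Levels of the 10 markers in each of the 8 libraries, 1 panel per gene, with LAA+ATRA, ATRA, LAA and vehicle from left to right; the 7 tested genes are in CPM and CD14, CD163 and CLEC7A in estimated counts, circles are replicate 1, squares replicate 2 and bars the means. The ATRA-containing libraries lie above the others for CD68, CD86, CD4 and TREM1 and below them for FCN1 and VCAN, while CD14, CD163 and CLEC7A have at most 8 counts in any library.

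TREM1, CD68 and CD86 rose the most of the 7 tested markers in cells given ATRA. In ATRA against vehicle, TREM1 was 13.9-fold, CD86 9.74-fold and CD68 7.51-fold higher, and in LAA+ATRA against vehicle the rises were 10.8-fold, 6.72-fold and 6.13-fold. Of the 14995 genes tested, 1.19% had a larger log2 rise than TREM1 in ATRA against vehicle, 1.5% a larger one than CD86 and 1.91% a larger one than CD68. These RNAs come from whole cultures, so more cells of a type and more RNA per cell cannot be told apart.

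TREM1, on the minus strand of chromosome 6 (41267926 to 41286719, GRCh38), encodes a surface receptor of neutrophils and monocytes that amplifies inflammatory signalling through the adaptor made by TYROBP. Its levels were 8.89 and 11.1 CPM in LAA+ATRA, 12.4 and 13.3 CPM in ATRA, 1.04 and 0.893 CPM in LAA, and 0.914 and 0.922 CPM in vehicle. The 4 libraries with ATRA lay far above the 4 without it, and LAA and vehicle overlapped. The log2 change was 3.44 ± 0.24 (SE) in LAA+ATRA against vehicle and 3.80 ± 0.24 in ATRA against vehicle, with adjusted p of 5.19e-07 and 1.66e-07 (edgeR quasi-likelihood test, Benjamini-Hochberg adjustment over all genes tested, as for every adjusted p here; a gene is called at an adjusted p under 0.05). Against LAA, the LAA+ATRA change was 3.36 ± 0.24, with an adjusted p of 6.84e-07 by edgeR. TREM1 was called in each of these comparisons under all 17 alternatives tried.

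CD68 (chromosome 17, plus strand, 7579467 to 7582113) encodes a heavily glycosylated protein of lysosomal membranes and is a common macrophage stain in tissue sections. Its levels were 410 and 380 CPM in LAA+ATRA, 502 and 466 CPM in ATRA, 57.3 and 65 CPM in LAA, and 59.3 and 69.6 CPM in vehicle. As with TREM1, the libraries with ATRA stood apart from those without, and LAA and vehicle overlapped. The log2 change was 2.62 ± 0.12 (SE) in LAA+ATRA against vehicle and 2.91 ± 0.12 in ATRA against vehicle, with adjusted p of 1.25e-08 and 4.32e-09 by edgeR. It was 2.69 ± 0.12 in LAA+ATRA against LAA, with an adjusted p of 1.09e-08, and none of the 17 alternatives ended a CD68 call in these comparisons. The strand setting of the authors' counting is not given, and in GENCODE 29 CD68 shares exon bases with AC016876.2 on its own strand and with AC016876.1 on the other. AC016876.2 had 271.2 counts in LAA+ATRA, 235.9 in ATRA, 185.9 in LAA and 168.1 in vehicle (sums of 2 libraries), and AC016876.1 had 148, 154, 173.6 and 149 in the same order of groups. CD68 itself summed to 14893 counts in LAA+ATRA, 19877 in ATRA, 2392 in LAA and 2667 in vehicle, so both neighbours were small beside it.

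CD86 (chromosome 3, plus strand, 122055366 to 122121139) encodes the B7 ligand by which antigen-presenting cells stimulate T cells through CD28. It was a low transcript, at 2.74 and 3.17 CPM in LAA+ATRA, 4.53 and 4.06 CPM in ATRA, 1.19 and 1.68 CPM in LAA, and 0.481 and 0.388 CPM in vehicle. No pair of groups overlapped, and the 2 vehicle libraries held only 10 and 8 counts. CD86 passed the low-count filter through the treated groups, since no vehicle library reached the filter's 0.514 CPM. The log2 change was 2.75 ± 0.40 (SE) in LAA+ATRA against vehicle and 3.28 ± 0.39 in ATRA against vehicle, with adjusted p of 0.000151 and 3.32e-05 by edgeR. These p-values are conditional on CD86 being high in the treated groups, through which it passed the filter. In an edgeR fit without the low-count filter, the adjusted p was 1.13e-08 in LAA+ATRA against vehicle and 1.95e-12 in ATRA against vehicle. That fit is on another scale: in LAA+ATRA against vehicle the edgeR adjusted p of CD68 went from 1.25e-08 to 3.31e-100. Its smaller values for CD86 thus do not show that the result is free of the filter. Both CD86 calls against vehicle held under all 17 alternatives, most of which apply a filter on low values. CD86 was 2.06-fold higher in LAA+ATRA than in LAA, with an adjusted p of 0.0335 by edgeR. That call was lost without any 1 of the 4 libraries compared: the adjusted p was 0.0523 without LAA+ATRA 1, 0.116 without LAA+ATRA 2, 0.194 without LAA 1 and 0.0536 without LAA 2. DESeq2 gave 0.0687.

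The bases around the annotated starts of these 3 genes are shown because the genes rose in the same groups, and that of FCN1, which fell there, is set beside them. The windows run from 250 bases before to 50 bases after the RefSeq start on GRCh38.p14, 5′ to 3′ along the gene: CD68 at chr17:7579388-7579687 (plus strand), TREM1 at chr6:41286633-41286932 (minus strand), CD86 at chr3:122055112-122055411 (plus strand, the first of its 2 starts in the table) and FCN1 at chr9:134917863-134918162 (minus strand). Capitals mark matches, on either strand, to the retinoic acid receptor half-site AGGTCA and its variants, which are GGTTCA and also the form GGGTCA, the PU.1 core GAGGAA, the C/EBP core TTGCNNAA and the AP-1 motif TGANTCA.
CD68: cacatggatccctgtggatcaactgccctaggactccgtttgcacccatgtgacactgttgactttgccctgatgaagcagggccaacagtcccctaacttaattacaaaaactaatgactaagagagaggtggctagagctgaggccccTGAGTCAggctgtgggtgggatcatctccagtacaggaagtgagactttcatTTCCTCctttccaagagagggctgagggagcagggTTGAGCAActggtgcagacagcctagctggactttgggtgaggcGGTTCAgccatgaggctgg
TREM1: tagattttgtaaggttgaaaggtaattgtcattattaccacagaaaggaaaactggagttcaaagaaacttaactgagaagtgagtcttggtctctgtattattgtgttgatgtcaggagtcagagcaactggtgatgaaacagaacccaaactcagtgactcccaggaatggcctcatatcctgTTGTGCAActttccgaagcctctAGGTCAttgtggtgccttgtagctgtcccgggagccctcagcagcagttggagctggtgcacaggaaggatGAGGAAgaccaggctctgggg
CD86: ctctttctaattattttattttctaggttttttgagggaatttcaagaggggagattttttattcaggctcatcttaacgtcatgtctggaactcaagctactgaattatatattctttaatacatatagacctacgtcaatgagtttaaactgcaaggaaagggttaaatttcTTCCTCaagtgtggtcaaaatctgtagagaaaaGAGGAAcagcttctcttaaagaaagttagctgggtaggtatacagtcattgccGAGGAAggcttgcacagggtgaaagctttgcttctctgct
FCN1: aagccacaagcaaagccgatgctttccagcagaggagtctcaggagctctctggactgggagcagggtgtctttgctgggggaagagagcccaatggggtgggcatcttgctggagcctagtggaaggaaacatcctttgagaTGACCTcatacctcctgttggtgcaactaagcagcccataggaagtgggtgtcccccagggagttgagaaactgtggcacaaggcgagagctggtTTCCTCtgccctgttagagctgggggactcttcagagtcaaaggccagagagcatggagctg

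The TREM1 window held AGGTCA at 42 bases before the start, TTGCNNAA (reverse strand) at 65 before it and GAGGAA at 30 after it. The CD68 window held GGTTCA at 32 bases after the start, GAGGAA at 48 before it, TTGCNNAA at 13 before it, both on the reverse strand, and TGANTCA, which reads the same on both strands, at 100 before it. The CD86 window held GAGGAA 3 times, and the window of its other start (chr3:122077534-122077833) held none of the 6 motifs. FCN1 held AGGTCA at 107 bases before the start and GAGGAA at 12 before it, both on the reverse strand. Among 35116 promoter windows of 300 bases, 13.8% held AGGTCA, 8.62% GGTTCA, 14.1% GGGTCA, 27.9% GAGGAA, 10.5% TTGCNNAA and 7.71% TGANTCA. The VCAN window held GGTTCA at 94 bases before the start, on the reverse strand. The CD14 window held GGTTCA at 69 bases before the start. Half-sites were thus found in the windows of TREM1 and CD68, which rose, of FCN1 and VCAN, which fell, and of CD14, which stayed near 0. Neither CD86 window held one, nor did those of CD163 and MARCO, and a match describes letters in a window, not a bound site. Windows were found for 8 of the 10 genes; CD4 and CLEC7A had no entry.

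CD4 rose by less, from a level that was already high. CD4 (chromosome 12, plus strand, 6786858 to 6820808) encodes the co-receptor for class II major histocompatibility complex best known from helper T cells and also carried by monocytes and macrophages. Its levels were 367 and 349 CPM in LAA+ATRA, 476 and 434 CPM in ATRA, 217 and 245 CPM in LAA, and 291 and 290 CPM in vehicle. No pair of groups overlapped, with ATRA highest and LAA lowest. CD4 was 1.57-fold higher in ATRA than in vehicle (log2 change 0.65 ± 0.10, SE; edgeR adjusted p = 0.000247). It was 1.55-fold higher in LAA+ATRA than in LAA, with an adjusted p of 4e-04. These calls held under all 17 alternatives. The CD4 rise in LAA+ATRA against vehicle was 1.23-fold (log2 change 0.30 ± 0.10; edgeR adjusted p = 0.0276). Without LAA+ATRA 1 the adjusted p was 0.0832, without vehicle 1 it was 0.14, without vehicle 2 it was 0.144, and with FPKM (fragments scaled to gene length and library size) or a gene length offset it was 0.0505 to 0.0711, so the call was lost. T-cell genes were near absent: the 8 genes of that list, 5 of which had under 10 counts in all, summed to 1.11 to 1.12 CPM in LAA+ATRA, 0.734 to 0.83 CPM in ATRA, 0.578 to 0.645 CPM in LAA and 0.289 to 0.291 CPM in vehicle.

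FCN1 and VCAN, 2 markers of classical blood monocytes, fell with ATRA, but other genes of such monocytes did not. Mean levels in ATRA and in vehicle were 54.6 and 3.43 CPM for S100A9, 6.36 and 1.01 CPM for S100A8, and 4.81 and 0.627 CPM for CCR2. CD14 stayed near 0. FCN1 (chromosome 9, minus strand, 134905890 to 134917963) encodes ficolin-1, a secreted pattern recognition lectin that starts the lectin pathway of complement. Its levels were 11.2 and 6.79 CPM in LAA+ATRA, 8.18 and 7.21 CPM in ATRA, 19.1 and 21.1 CPM in LAA, and 16.5 and 14.5 CPM in vehicle. Both ATRA-containing groups lay below LAA and vehicle, and the LAA+ATRA libraries, which differed from each other, spanned the ATRA values. FCN1 fell by 1.01 ± 0.21 (SE) on the log2 scale in ATRA against vehicle, with an adjusted p of 0.00186 by edgeR. It fell by 1.16 ± 0.21 in LAA+ATRA against LAA, with an adjusted p of 0.000854. It fell by 0.79 ± 0.21 in LAA+ATRA against vehicle, with an adjusted p of 0.00822. The last of these calls depended on single libraries: without LAA+ATRA 2 the log2 change was -0.46 and the adjusted p 0.0717, and without vehicle 1 they were -0.69 and 0.0639. It was also lost with each FPKM setting (adjusted p of 0.0697 to 0.144 by limma).

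VCAN (chromosome 5, plus strand, 83471465 to 83582303) encodes versican, a proteoglycan of the extracellular matrix. It was almost absent throughout, with 1 and 1 counts in LAA+ATRA, 0 and 0 in ATRA, 13 and 5 in LAA, and 12 and 12 in vehicle. VCAN passed the filter only through the LAA and vehicle libraries, so its p-values after that filter are conditional on its being high there. In ATRA, where no count was seen in either library, the ratio to vehicle had an exact 95% interval of 0 to 0.167, for counting error only. With the 0 set to a floor of 3 counts summed over its libraries, VCAN was 7.97-fold lower in ATRA than in vehicle. In an edgeR fit without the low-count filter, the adjusted p of ATRA against vehicle was 0.00241, on the other scale described for CD86. LAA+ATRA held 2 counts against 24 in vehicle, a ratio of 0.0913 with an exact 95% interval of 0.0105 to 0.368 that covers counting error only. The adjusted p was 0.0505 without the low-count filter and 0.0232 with it by edgeR, and the call with it was lost without either LAA+ATRA library and without either vehicle library (adjusted p of 0.118, 0.125, 0.103 and 0.098 by edgeR) and with DESeq2 (0.0668). Against the 18 counts of LAA the ratio was 0.115, with an interval of 0.013 to 0.481, and the edgeR adjusted p was 0.111 without the filter and 0.0491 with it, the last of which rose to between 0.0616 and 0.333 whichever library was left out. LAA held 18 counts against 24 in vehicle, a ratio of 0.792 with an interval of 0.405 to 1.52. The 2 counts of LAA+ATRA against 0 in ATRA are both at or under the floor, so no fold is given.

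MARCO, a class A scavenger receptor that binds bacteria and unopsonised particles, gave different answers on the 2 deposited scales. On the count scale MARCO (chromosome 2, plus strand, 118942166 to 118994660) was at 18.5 and 12.6 CPM in LAA+ATRA, 10.3 and 10.2 CPM in ATRA, 10.9 and 13.1 CPM in LAA, and 10.4 and 9.6 CPM in vehicle. ATRA lay within the range of vehicle, while LAA+ATRA lay above both and overlapped LAA. In LAA+ATRA against vehicle MARCO was 1.54-fold higher (log2 change 0.63 ± 0.19, SE; edgeR adjusted p = 0.017). The call was lost without LAA+ATRA 1 (adjusted p = 0.196 by edgeR, log2 change 0.33), without vehicle 1 (0.0572) and without vehicle 2 (0.102). On the FPKM scale it was not seen: the log2 change was 0.07 with limma on log2(FPKM + 1) and on log2(FPKM + 0.1), with adjusted p of 0.739 and 0.744. In LAA+ATRA against LAA the log2 change on counts was 0.37 ± 0.19, with an adjusted p of 0.15 by edgeR. In ATRA against vehicle the log2 change was 0.03 ± 0.19, with an adjusted p of 0.916.

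On the FPKM scale MARCO was lowest in ATRA. Its FPKM values were 18.1 and 14 in LAA+ATRA, 7.92 and 7.16 in ATRA, 12.8 and 13.2 in LAA, and 16.4 and 13.9 in vehicle. Both ATRA libraries lay below every other library. The gene length behind these values, recovered as the count divided by the FPKM, scaled between libraries and set relative to the gene's geometric mean over the 8 libraries, was 1.06 and 0.959 in LAA+ATRA, 1.38 and 1.52 in ATRA, 0.898 and 1.04 in LAA, and 0.679 and 0.735 in vehicle. The length in ATRA was 2.05 times that in vehicle, and of 9610 genes compared 0.0728% had a length that differed by as much. CD68, CD4 and FCN1 had length ratios between 0.998 and 1.01 in the same comparison, while TREM1 and CD86 had 0.77 and 0.868. With the lengths as an offset in edgeR, an alternative chosen after the data were seen, MARCO fell by 1.02 on the log2 scale in ATRA against vehicle, with an adjusted p of 0.00289, and with limma on log2(FPKM + 1) it fell by 0.92, with an adjusted p of 0.00281. GENCODE 29 lists 3 MARCO transcripts: 2 coding ones of 1838 and 569 bases and 1 with a retained intron of 556 bases. The deposited tables are per gene, so the transcripts behind each library's length were not analysed here.

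**Figure D2:**
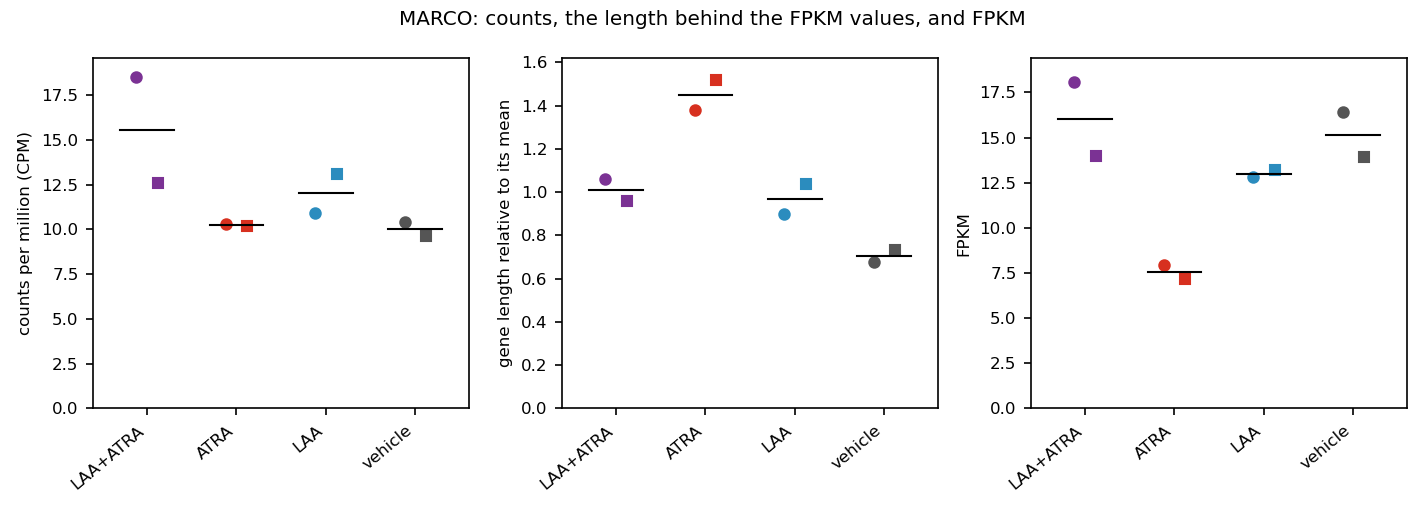
MARCO in each of the 8 libraries as CPM, as gene length relative to its mean over the libraries and as FPKM, with LAA+ATRA, ATRA, LAA and vehicle from left to right; circles are replicate 1, squares replicate 2 and bars the means. ATRA lies with vehicle in CPM, highest in length (1.38 and 1.52) and lowest in FPKM (7.92 and 7.16).

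CD14, CD163 and CLEC7A were near 0 in every group. CD14, the co-receptor that hands lipopolysaccharide to TLR4 and the classical surface marker of monocytes (chromosome 5, minus strand, 140631728 to 140633701), had 1 and 0 counts in LAA+ATRA, 1 and 2 in ATRA, 3 and 8 in LAA, and 0 and 3 in vehicle. The LAA and vehicle libraries overlapped at 3 counts. The sums of 11 counts in LAA and 3 in vehicle gave a ratio of 3.87, with an exact 95% interval of 1.02 to 21.6 for counting error only. The 1 count of LAA+ATRA against those 11 in LAA gave a ratio of 0.0943, with an interval of 0.00219 to 0.649. The intervals of LAA+ATRA against vehicle (0.00696 to 4.55), ATRA against vehicle (0.134 to 7.49) and LAA+ATRA against ATRA (0.00694 to 4.53) all contained a ratio of 1. CD163, the scavenger receptor for haptoglobin-haemoglobin complexes (chromosome 12, minus strand, 7470813 to 7503893), had 0 and 1 counts in LAA+ATRA, 1 and 2 in ATRA, 2 and 4 in LAA, and 3 and 2 in vehicle. Its ratios were 0.219 (0.00463 to 1.96) in LAA+ATRA against vehicle, 0.602 (0.0935 to 3.09) in ATRA against vehicle, 1.27 (0.322 to 5.25) in LAA against vehicle, 0.364 (0.00694 to 4.53) in LAA+ATRA against ATRA and 0.173 (0.00376 to 1.43) in LAA+ATRA against LAA, so no difference was detectable at this depth. CD163 shares exon bases with CD163L1, which had 348 to 503 counts per group, so some of its few counts may belong to that gene. CLEC7A, which encodes dectin-1, the receptor for fungal beta-glucan (chromosome 12, minus strand, 10116777 to 10130258), had 0 and 5 counts in LAA+ATRA, 0 and 2 in ATRA, and 0 in every LAA and vehicle library. All 7 CLEC7A counts thus came from 2 of the 8 libraries. LAA+ATRA against ATRA gave a ratio of 2.73, with an interval of 0.447 to 28.7. Against the 0 counts of vehicle and of LAA, the exact lower limits of the LAA+ATRA ratio were 1 and 0.951. With those 0 counts set to the floor the ratios were 1.83 and 1.73, on the counts of 1 library, so no clear difference was seen. A floor of 3 counts over a group corresponds to 0.0725 to 0.0794 CPM.

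LAA alone called none of the 7 tested markers by edgeR (2 at an unadjusted p under 0.05, and 1 by DESeq2), and 0.0267% of all tested genes were called in LAA against vehicle (4 genes, against 2833 at an unadjusted p under 0.05). CD86 came nearest: it was 3.26-fold higher in LAA than in vehicle, with a 95% interval of 1.75 to 6.1 and an adjusted p of 0.0684 by edgeR. Both LAA libraries lay above both vehicle libraries. Without the low-count filter the edgeR adjusted p was 0.0133, in a fit that called 828 genes in this comparison. CD4 was lower in both LAA libraries than in both vehicle libraries, with a log2 change of -0.33 ± 0.10 (SE) and an adjusted p of 0.116. CD4 passed the threshold with DESeq2 (adjusted p = 0.0157) and in an edgeR fit of these 4 libraries alone (0.00697), so its call differed with the tool and with the libraries fitted. For CD68 the fold in LAA against vehicle had a 95% interval of 0.799 to 1.13 and for TREM1 of 0.669 to 1.66. FCN1 and MARCO were higher in both LAA libraries than in both vehicle libraries by 0.37 ± 0.20 and 0.26 ± 0.19 on the log2 scale (adjusted p of 0.334 and 0.504 by edgeR). Among all tested genes, 56% had LAA and vehicle libraries that did not overlap.

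CD68, CD4, FCN1, MARCO and TREM1 were above the filter's cutoff in every library, while CD86 and VCAN were tested through the groups where they were high and are left out of the following counts. Of these 5, 4 rose and 1 fell in LAA+ATRA against vehicle, where 44.7% of all tested genes were called, 23.1% higher and 21.5% lower. In ATRA against vehicle 3 rose and 1 fell, beside 42.9% of all genes, 21.9% higher and 21% lower. For LAA+ATRA against LAA it was also 3 and 1, beside 36.4% of all genes, 18.4% higher and 18% lower. A large part of the transcriptome was thus called in these comparisons, with a median log2 change over all tested genes of 0.012 in LAA+ATRA against vehicle and -0.004 in ATRA against vehicle. The LAA+ATRA and ATRA comparisons with vehicle share the same 2 vehicle libraries.

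Adding LAA to ATRA called none of the 7 markers by edgeR (3 at an unadjusted p under 0.05, and 1 by DESeq2), beside 1.01% of all tested genes (152 called by edgeR, 2782 at an unadjusted p under 0.05). CD68, CD86, CD4 and TREM1 were lower in both LAA+ATRA libraries than in both ATRA libraries, as were 22.9% of all tested genes. The log2 changes were -0.29 ± 0.11 (SE) for CD68, -0.54 ± 0.32 for CD86, -0.35 ± 0.10 for CD4 and -0.36 ± 0.19 for TREM1, with adjusted p of 0.178, 0.404, 0.0997 and 0.33 by edgeR. MARCO was higher in both LAA+ATRA libraries, by 0.60 ± 0.19 with an adjusted p of 0.125, and FCN1 overlapped, at 0.23 ± 0.22 with an adjusted p of 0.631. DESeq2 called CD4 in this comparison (adjusted p = 0.0123), among 705 genes called. Without the low-count filter, edgeR called CD4 (0.0466) and MARCO (0.0408), among 903 genes called. The interaction, which asks whether ATRA and LAA together differ from the sum of their separate log2 changes, called none of the 7 markers by edgeR (1 at an unadjusted p under 0.05, and 0 by DESeq2) and 0.00667% of all tested genes (1 gene, 747 at an unadjusted p under 0.05). For CD86 it was -2.24 ± 0.53 with an adjusted p of 0.662 by edgeR. Without the low-count filter it was -2.25 with an edgeR adjusted p of 0.0308, in a fit that called 136 genes. For CD68 and TREM1 it was -0.22 ± 0.16 and -0.44 ± 0.36, with an adjusted p of 0.986 for each. For CD4, FCN1 and MARCO it was -0.02 ± 0.14, -0.15 ± 0.29 and 0.34 ± 0.27, with adjusted p of 1, 1 and 0.986 by edgeR, and for VCAN, with no counts in ATRA, the adjusted p was 0.986 and no size is given.

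**Figure D3:**
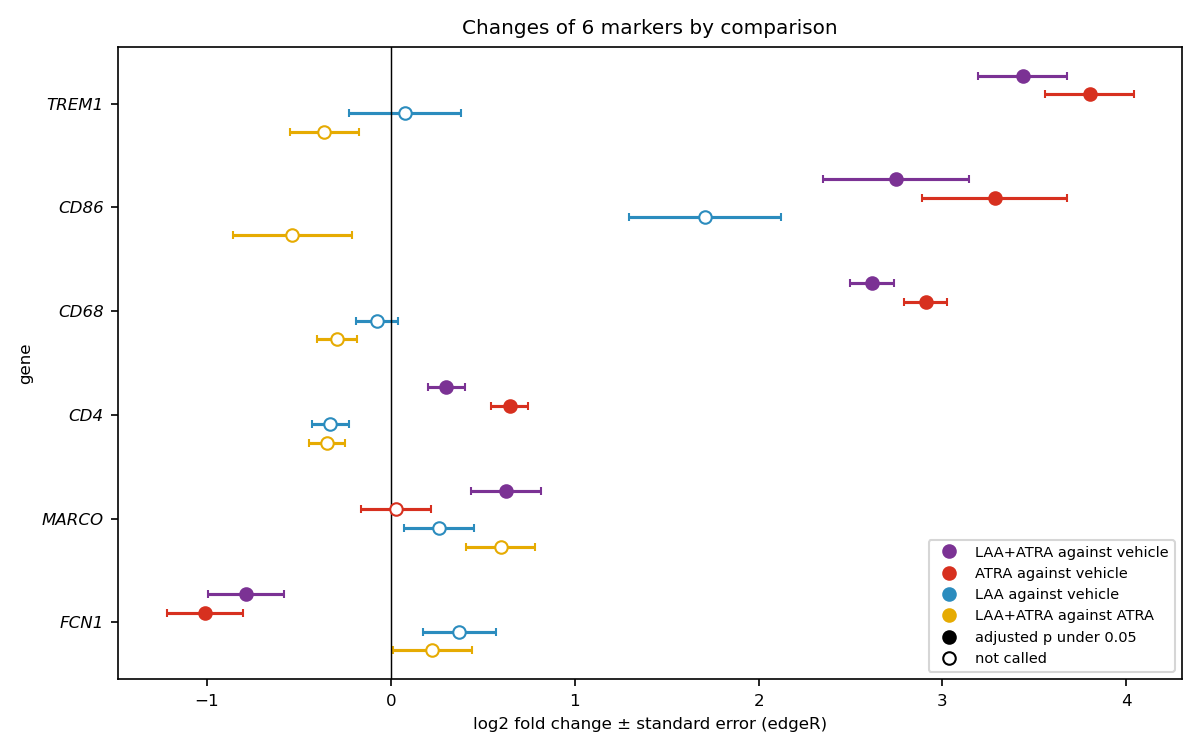
Log2 fold change with its standard error (edgeR) for TREM1, CD86, CD68, CD4, MARCO and FCN1 in LAA+ATRA against vehicle, ATRA against vehicle, LAA against vehicle and LAA+ATRA against ATRA; filled points passed an adjusted p of 0.05. TREM1, CD86 and CD68 lie between 2.62 and 3.80 in both ATRA-containing comparisons with vehicle, and no point is filled in the last 2 comparisons.

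Per length, the markers changed their order with ATRA. In LAA+ATRA the order by mean FPKM was CD68 (276), CD4 (131), MARCO (16), TREM1 (12.7), CD86 (1.61) and FCN1 (1.21), and the libraries of the last 2 overlapped. In ATRA it was CD68 (341), CD4 (169), TREM1 (17.6), MARCO (7.54), CD86 (2.38) and FCN1 (1.07), with no overlap between neighbours. In LAA it was CD4 (85.5), CD68 (42.4), MARCO (13), FCN1 (2.77), TREM1 (0.937) and CD86 (0.741), with TREM1 and CD86 overlapping. In vehicle it was CD4 (109), CD68 (45.4), MARCO (15.2), FCN1 (2.18), TREM1 (0.929) and CD86 (0.215), and CD86, VCAN and CD14 overlapped. CD68 thus stood above CD4 in both groups with ATRA and below it in both without, and TREM1 above FCN1 with ATRA and below it without. VCAN, CD14, CD163 and CLEC7A had a mean of at most 0.248 FPKM in every group.

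The genes that work with each marker were looked at through lists of known partners. Their counts in ATRA against vehicle are to be read beside the 21.9% of all tested genes that rose and the 21% that fell. For TREM1, all 3 tested of 6 listed genes rose in ATRA against vehicle. TREM2 among them passed the low-count filter only through the groups with ATRA, with means of 0.0485 CPM in vehicle and 0.156 CPM in LAA. TYROBP, its signalling adaptor, was at 223 ± 47.8 CPM in LAA+ATRA, 216 ± 1.02 CPM in ATRA, 33.7 ± 0.102 CPM in LAA and 29.1 ± 0.18 CPM in vehicle (SD, n = 2), 7.43-fold higher in ATRA than in vehicle (edgeR adjusted p = 1.49e-08). TREML2, a relative of TREM1 in the same gene cluster, was 3.39-fold higher (adjusted p = 1.23e-05 by edgeR). TREM2, a lipid-sensing receptor of macrophages, had 96 counts in ATRA against 2 in vehicle, a ratio of 48.2 with an exact 95% interval of 13 to 403 for counting error only. PGLYRP1, which encodes a reported ligand of TREM1, had no counts.

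For CD68, 2 of 4 tested lysosomal membrane genes rose in ATRA against vehicle and none fell. CD63, a tetraspanin of lysosomes, was 2.8-fold higher and LAMP2, a major lysosomal glycoprotein, 1.25-fold higher (edgeR adjusted p of 9.49e-07 and 0.0288). The LAMP2 call was lost under 9 of 17 alternatives, among them the removal of any 1 of ATRA 2, LAA 1, LAA 2, vehicle 1 and vehicle 2 (adjusted p of 0.153, 0.052, 0.0521, 0.0991 and 0.186). For CD86, 3 of 7 costimulatory and checkpoint ligands were tested. CD58, an adhesion ligand of T cells, was 1.59-fold higher in ATRA than in vehicle (edgeR adjusted p = 0.00444), and CD276, a B7 relative, fell by 0.47 on the log2 scale (0.00935), a call lost without vehicle 1 (0.0776) and with FPKM. CD80, the other B7 ligand of CD28, had 2 counts in all and CD40 none. For CD4, IL16, a cytokine that uses CD4 as its receptor, was 1.5-fold and UNC119, an activator of SRC-type kinases, 1.63-fold higher in ATRA than in vehicle (edgeR adjusted p of 0.000911 and 0.00168), while LCK, the kinase bound to CD4 in T cells, had no counts. The IL16 call was lost with FPKM and with the length offset (0.0579 to 0.0878).

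Partners of the markers near 0 were present to differing degrees. For CD14, all 6 genes of lipopolysaccharide sensing were tested, and 4 rose in ATRA against vehicle and 6 in LAA+ATRA against vehicle. LBP among them passed the low-count filter only through the groups with ATRA. TLR4, the receptor that CD14 serves, was at 60.1 ± 1.19 CPM in LAA+ATRA, 86.7 ± 0.335 CPM in ATRA, 28.7 ± 0.085 CPM in LAA and 32.7 ± 0.87 CPM in vehicle (SD, n = 2), 2.65-fold higher in ATRA than in vehicle (edgeR adjusted p = 2.92e-07). MYD88, the adaptor of TLR4, was 1.85-fold higher (1.65e-05 by edgeR). LBP, the lipopolysaccharide-binding protein, was at 15.8 ± 1.66 CPM in LAA+ATRA, 3.14 ± 0.0679 CPM in ATRA, 0.206 ± 0.0805 CPM in LAA and 0.0726 ± 0.0346 CPM in vehicle (SD, n = 2). Against the 3 counts of vehicle, the 130 counts of ATRA gave a ratio of 43.5, with an exact 95% interval of 14.5 to 214 for counting error only. In LAA+ATRA LBP was 5.01-fold higher than in ATRA (log2 change 2.32 ± 0.23, SE; edgeR adjusted p = 0.00252), and the call held under 15 of the 16 alternatives that gave a value, the exception being limma on log2(FPKM + 0.1) with an adjusted p of 0.0944.

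For CD163, 3 of 5 genes of haem uptake and receptor shedding rose in ATRA against vehicle. HP, haptoglobin, the ligand of CD163, was 34.1-fold and HMOX1, the enzyme that degrades haem, 2.74-fold higher (edgeR adjusted p of 5.26e-08 and 9.49e-05), but HP has a closely similar neighbour, HPR, and the split of reads between them is uncertain. Without ATRA the mean of HP was under the filter's 0.514 CPM, at 0.459 CPM in vehicle and 0.379 CPM in LAA, against 15.8 CPM in ATRA. ADAM17, the protease that sheds CD163, was 1.24-fold higher (adjusted p = 0.0253 by edgeR), a call lost under 8 of 17 alternatives, among them without ATRA 1 (0.0657), vehicle 1 (0.0593) and vehicle 2 (0.21). For CLEC7A, 7 of 11 genes of dectin signalling and the dectin family were tested, of which 3 rose and 1 fell. The 4 untested were CLEC6A with 0, CLEC4E with 10, CLEC4A with 39 and CLEC4D with 53 counts over all libraries. CARD9, SYK and BCL10, which relay the dectin-1 signal, were 2.15-fold, 1.37-fold and 1.52-fold higher in ATRA than in vehicle (edgeR adjusted p of 4.01e-06, 0.00352 and 0.00146).

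For the markers that fell and for MARCO the lists were mixed. Of 4 tested genes of the hyaluronan and versican matrix, 2 fell in ATRA against vehicle. HAPLN3 among them passed the low-count filter only through the vehicle libraries, so its p-value is conditional on its being high there. CD44, the hyaluronan receptor, fell by 0.38 on the log2 scale (edgeR adjusted p = 0.00643; 0.0538 without vehicle 1 and 0.0535 without vehicle 2), and HAPLN3, a link protein at 1.09 CPM in vehicle, fell by 2.28 (0.0207; 0.0591 to 0.166 without either ATRA or either vehicle library). Of 6 lectin pathway genes beside FCN1, 2 were tested, and C2, a complement protease precursor, was 5.52-fold higher in ATRA than in vehicle (edgeR adjusted p = 1.85e-08). The other ficolins, FCN2 and FCN3, had 0 and 1 counts. Of 4 tested scavenger receptor genes beside MARCO, 2 rose and 2 fell in ATRA against vehicle. CD36, which takes up oxidised lipoproteins, and CXCL16, a membrane chemokine that does so as well, were 20.3-fold and 3.09-fold higher (edgeR adjusted p of 4.8e-09 and 4.35e-06), and COLEC12, a collectin, fell by 1.96 on the log2 scale (0.00417).

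Of the partner genes, IL16, TLR4 and ADAM17 were lower in LAA+ATRA than in ATRA, as was MERTK, the macrophage receptor for apoptotic cells. The log2 changes were -0.51 ± 0.11 (SE) for IL16, -0.53 ± 0.09 for TLR4, -0.51 ± 0.10 for ADAM17 and -0.57 ± 0.11 for MERTK, with adjusted p of 0.0486, 0.0337, 0.0435 and 0.0428 by edgeR. These calls were fragile: those of IL16, ADAM17 and MERTK were lost whichever of the 8 libraries was left out, and that of TLR4 in 6 of 8 cases. The cause was not tested.

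A wider list of 40 other monocyte and macrophage genes held 32 that were tested. C1QA, TREM2 and CD209 passed the low-count filter only through the groups with ATRA, with means of 0.121, 0.0485 and 0.0485 CPM in vehicle. CD300E passed it only through the LAA libraries, with means of 0.612 CPM in LAA, 0.29 in vehicle, 0.0769 in ATRA and 0.156 in LAA+ATRA. The counts and medians below include all of these genes. Their testing was conditional on their being high with ATRA or, for CD300E, in LAA. In LAA+ATRA against vehicle 21 rose and 4 fell, with a median log2 change of 1.51, beside 23.1% higher and 21.5% lower of all tested genes. In ATRA against vehicle 21 rose and 2 fell, with a median of 1.97, beside 21.9% and 21%. In LAA against vehicle none was called and the median was 0.18, and in LAA+ATRA against LAA 19 rose and 3 fell, with a median of 1.66, beside 18.4% and 18%. CTSD, a lysosomal protease, was 10.6-fold, CYBB, the catalytic subunit of the phagocyte oxidase, 35.9-fold and CD36 20.3-fold higher in ATRA than in vehicle (edgeR adjusted p of 5.75e-10, 6.43e-10 and 4.8e-09). The 2 genes that fell, named after their values were seen, were LGALS3, which encodes galectin-3, and FCGR2A, an Fc receptor. The 8 untested genes included FCGR3A, MSR1 and CD40 with no counts, and MRC1, CD80, C1QC, C1QB and MPEG1 with 2, 2, 4, 8 and 13 counts over all 8 libraries.

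**Figure D4:**
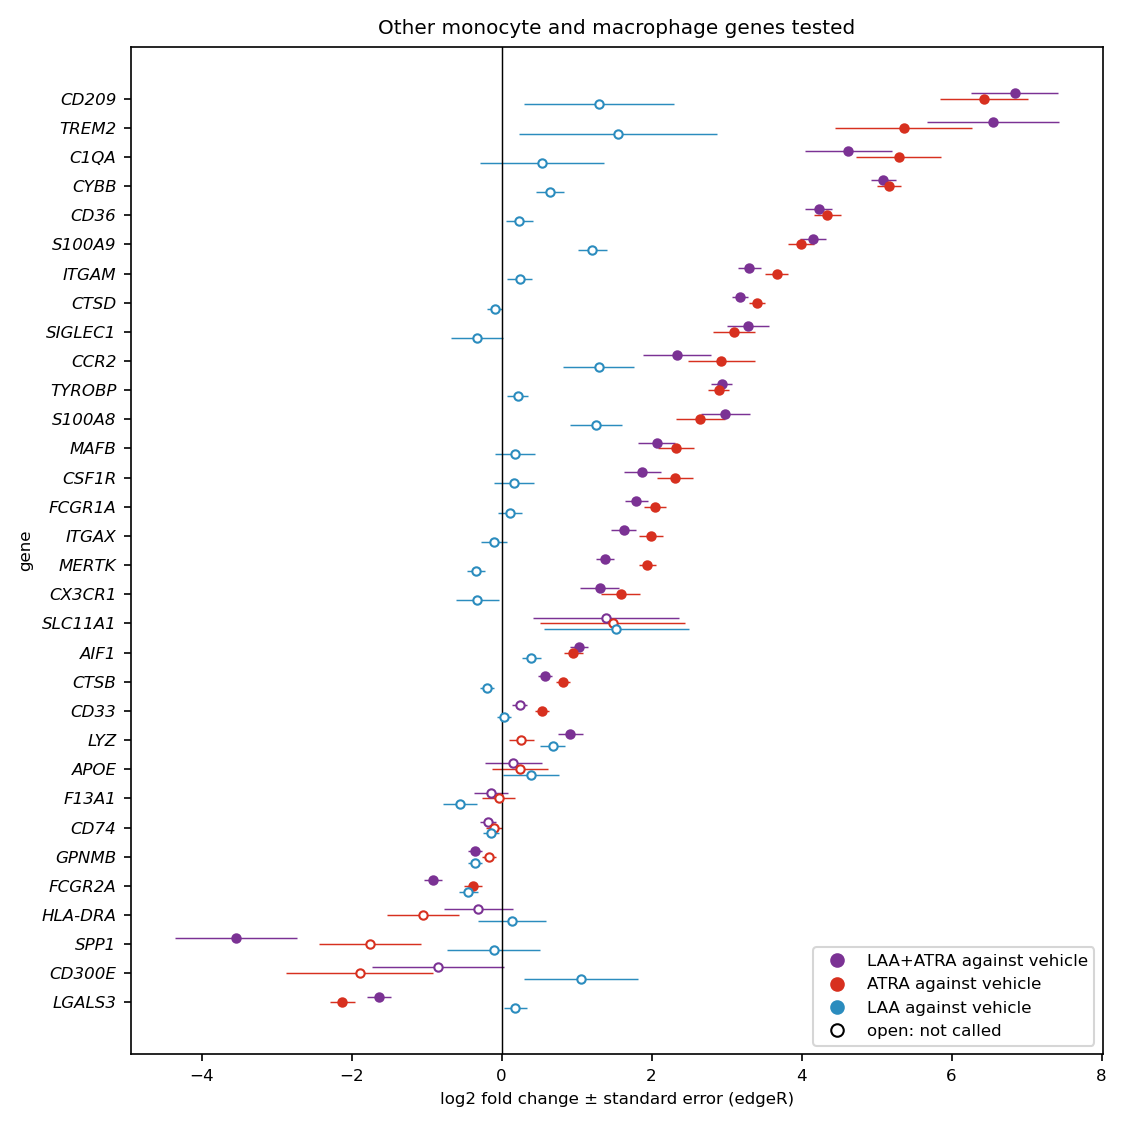
Log2 fold change (edgeR) of the 32 tested genes of the wider monocyte and macrophage list with its standard error, 1 row per gene, in LAA+ATRA against vehicle, ATRA against vehicle and LAA against vehicle; filled points passed an adjusted p of 0.05. The median is 1.51 in LAA+ATRA, 1.97 in ATRA and 0.18 in LAA, and no gene passed in LAA.

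The genes whose levels lay closest to each tested marker over the 8 libraries were found by the Euclidean distance between log2 CPM profiles, each centred on its own mean, among 10647 genes with a symbol. For TREM1, whose own profile had a length of 4.9, they were CTSD (distance 0.455), VSIR (0.464) and PTGS1 (0.533). For CD68 (length 3.98) they were IL31RA (0.283), LILRB2 (0.411) and GRN (0.418), and for CD86 (3.3) EGR1 (0.952), UPB1 (1.1) and S100A8 (1.18). CD68 thus had a close neighbour for the size of its change, and CD86, with its few counts, had none so near. For CD4 (1.04) they were NCKAP1L (0.162), CUX1 (0.175) and ZNF230 (0.202), and for FCN1 (1.69) GOLGA7B (0.347), ASMTL (0.349) and PCK2 (0.352). For VCAN (3.36) they were SRPX (0.736), MAST1 (0.845) and TRIB2 (0.881), and for MARCO (0.806) BCL2L12 (0.3), MZT2B (0.304) and GPX4 (0.307).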

How the data were processed

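Libraries were sequenced from U-937 RNA, 8 in all and 2 in each group, after poly-T bead selection and an NEBNext Ultra II preparation, per the labels. The submitters' processing notes name the tools Salmon 1.8.0 and DESeq2 1.36.0 with hg38 and GRCh38; the sources used here do not give the annotation release, index or strand setting. The authors deposited estimated counts per gene, which have decimals and are unscaled. They also deposited FPKM values; dividing count by FPKM shows that the length used for a gene was not the same in every library.

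Estimated counts were rounded, which changed 16.5% of values. Genes were filtered with filterByExpr (minimum count 10, minimum total 15), which kept 14995 of 61125, and scaled by TMM in edgeR 4.0.16 (R 4.3.3), and CPM values carry that scaling. A quasi-likelihood fit of 4 group means to all 8 libraries (4 residual and 8.2 prior degrees of freedom, common dispersion 0.0124) gave 6 contrasts, tested two-sided with Benjamini-Hochberg adjustment over all genes. Because counts were tested with 2 libraries per group, precision rests on a spread shared across groups. Of the alternatives, 16 were planned, with DESeq2 1.42.0 and limma 3.58.1 on log2(FPKM + 1) and log2(FPKM + 0.1) among them, and a length offset, from estimated count divided by FPKM, was chosen after seeing the data. The steps were tested on simulated data. Intervals of count ratios are exact, at 95%, and like the floor of 3 counts cover counting error only.

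The 10 markers, the partner lists and the wider lists were chosen with earlier results of these data known. By rule all 10 markers are described, the 3 untested ones by their counts; of each other list, up to 3 called genes with the smallest adjusted p are named. Nearest genes needed a mean of at least 5 CPM in their highest group. Replicate numbers came from the labels. Gene positions are from GENCODE 29 on GRCh38 and promoter sequences from RefSeq on GRCh38.p14.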

Additional observations from a re-analysis of the deposited data

How the results depend on the processing

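CD68 and TREM1 kept their calls in the comparisons with ATRA under all 17 alternatives, as did CD86 in ATRA and LAA+ATRA against vehicle. The counts of markers below include CD86 and VCAN, which were tested through the groups where they were high. Beside them, edgeR called 44.7% of all tested genes in LAA+ATRA against vehicle, 42.9% in ATRA against vehicle and 36.4% in LAA+ATRA against LAA. Of the 7 tested markers, 7 were called in LAA+ATRA against vehicle; 3 were called with each FPKM setting, 4 with the length offset and 3 to 7 when a library was left out. ATRA against vehicle called 6 markers, and 6 whichever library was left out; with the length offset it called 7 and on unfiltered FPKM 5, with MARCO among the lower ones on every FPKM setting and with the offset, and VCAN not tested on filtered FPKM. LAA+ATRA against LAA called 6, and 4 with DESeq2, the compared libraries alone or the length offset, 3 to 4 with FPKM and 4 to 5 when a library was left out. LAA against vehicle called 0, and 1 with DESeq2, with no filter on low counts, or in a fit of the compared libraries alone. LAA+ATRA against ATRA called 0, and 1 with DESeq2 or 2 with no filter; the interaction called 0, and 1 with no filter.

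Over all genes, LAA against vehicle called 4 genes, and 713 with DESeq2, 828 with no filter, 2187 in the compared libraries alone, 2 on log2(FPKM + 1), 7 on unfiltered FPKM, 0 with the length offset and 0 to 469 when a library was left out. LAA+ATRA against ATRA called 152, and 705 with DESeq2, 903 with no filter, 15 in the compared libraries alone, 6 on log2(FPKM + 1), 4 on log2(FPKM + 0.1), 27 on unfiltered FPKM, 15 with the offset and 6 to 172 when a library was left out. The interaction called 1, and 15 with DESeq2, 136 with no filter, 2, 3 and 10 with the same FPKM settings, and 1 to 15 when a library was left out. Unfiltered FPKM called 4334, 4163 and 3352 genes in LAA+ATRA against vehicle, ATRA against vehicle and LAA+ATRA against LAA, where edgeR called 6701, 6428 and 5451.

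Replicate numbers were not taken to pair libraries, since the differences between replicates correlated at -0.073 to 0.077 over the 6 pairs of groups. With the replicate block the number of markers called moved in 1 comparison, LAA+ATRA against LAA, where it was 5 and VCAN was not called (adjusted p = 0.0674 by edgeR). Over all genes the block called 2 in LAA against vehicle and 30 in LAA+ATRA against ATRA, where IL16, TLR4, ADAM17 and MERTK were not called.

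Several values changed sign. MARCO in ATRA against vehicle was -0.919, -0.997 and -0.919 on log2(FPKM + 1), log2(FPKM + 0.1) and unfiltered FPKM, -1.015 with the offset, and -0.031 to 0.092 when a library was left out. In LAA against vehicle, on the same settings, MARCO was -0.203, -0.216, -0.203 and -0.219 and TREM1 -0.006, -0.033, -0.006 and -0.065. When a library was left out of that comparison, TREM1 ranged over -0.04 to 0.181, CD68 over -0.188 to 0.041 and VCAN over -1.125 to 0.152. VCAN in LAA+ATRA against LAA was 0.07 on unfiltered FPKM, where its level is unstable. FCN1 in LAA+ATRA against ATRA ranged over -0.18 to 0.549, and in the interaction FCN1 ranged over -0.542 to 0.177 and CD4 over -0.103 to 0.073. The cause was not tested. On unfiltered FPKM, VCAN and FCN1 in ATRA against vehicle and FCN1 in LAA+ATRA against LAA also lost their calls (adjusted p of 0.344, 0.105 and 0.061 by limma). Low counts limit VCAN, CD86, CD14, CD163 and CLEC7A.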
